A study of Mus musculus with 12 samples.

Results

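Late erythroid cells are the red cell precursors of the marrow that had already filled with globin mRNA. They were chosen by a measured value, as the cells in which Hbb-bs, Hbb-bt, Hba-a1 and Hba-a2, the 4 adult globin genes, together held at least 1000 of every 10000 UMIs (a UMI, or unique molecular identifier, marks 1 captured RNA molecule). This gave 2607 of 32701 cells (7.97%). The globin sum that selected the cells is therefore a description here and was not tested. Of the other markers given for these cells, Slc4a1 (the anion exchanger band 3 of the red cell membrane) ran from 1194 to 2014 CPM over the 12 libraries, against 5.6 to 34 CPM in the cells under the limit. Hemgn (hemogen, an erythroid transcription regulator) ran from 1057 to 2243 CPM against 22.1 to 106 CPM. Both markers were thus high in every library, as the label says. CPM in this text means the UMIs of a gene as a share of all UMIs of the same cells, on the counts-per-M scale (M, 10 to the power of 6), after the 4 globin genes were taken out.

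The cells came from c-Kit-positive bone marrow cells of mice, enriched with magnetic beads from femurs and tibias and read with 10x Genomics 3' chemistry. All mice were given 5 injections of pIpC, a double-stranded RNA that switches on Mx1-Cre, at 20 mg/ml and, per the labels, an age of 8 to 12 weeks (the methods of the study give a younger age at injection). WT mice lacked Mx1-Cre and all mutants carried it, together with Ezh2 f/f in E2-KO (loss of the histone H3 lysine 27 methyltransferase Ezh2), with the activating NRas G12D allele on 1 chromosome in G12D, and with both in G12D/E2-KO (labelled G12D_E2-KO). Each genotype gave a single library per time point, where T1 stands for 2 weeks after the injections, T2 for 2 months and T3 for 4 months. The 3 time points stand as the replicates of a genotype. With time point as a term or a pairing, p-values measure the spread of the genotype differences between time points. Mx1-Cre cannot be told apart from the mutation in any comparison with WT. Mx1-Cre acts in many interferon-responsive cells and not in the erythroid line alone. Kit itself was low in the late erythroid cells (5.3 to 26.7 CPM, 63 UMIs in all) and reached 45.4 to 84.1 CPM in the other cells.

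During the last steps of red cell formation, erythroblasts stop dividing, make heme and globin in large amounts, build the spectrin-based membrane skeleton and clear nucleus and organelles, and most other transcripts are lost while globin mRNA persists. The transcription factors GATA1 and KLF1 drive this program through GATA and CACCC elements at the globin genes. In the marrow these precursors mature around a central macrophage, which takes up the expelled nuclei. Ezh2 is the catalytic subunit of Polycomb repressive complex PRC2, and NRas is a small GTPase downstream of cytokine receptors.

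The sequences 250 bases upstream of the RefSeq start of Hbb-bs (chr7:103827929-103828178, minus strand), Hbb-bt (chr7:103813924-103814173, minus strand) and Hba-a1 (chr11:32283422-32283671, plus strand) are shown because these genes define the cells (RefSeq, GRCm38.p6). Capitals mark the GATA motif GATAAG, the motif CACCC bound by KLF1, the box CCAAT and the box TATAA, each on either strand.
Hbb-bs: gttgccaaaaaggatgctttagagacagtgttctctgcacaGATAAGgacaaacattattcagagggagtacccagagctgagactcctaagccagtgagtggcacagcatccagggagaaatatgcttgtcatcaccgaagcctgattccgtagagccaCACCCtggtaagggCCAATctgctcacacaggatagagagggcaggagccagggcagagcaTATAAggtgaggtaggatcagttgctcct
Hbb-bt: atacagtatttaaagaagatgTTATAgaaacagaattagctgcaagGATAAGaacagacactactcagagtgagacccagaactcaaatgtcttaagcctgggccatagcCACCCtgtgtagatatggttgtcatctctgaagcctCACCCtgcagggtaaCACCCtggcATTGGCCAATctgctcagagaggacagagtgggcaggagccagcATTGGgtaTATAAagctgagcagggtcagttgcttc
Hba-a1: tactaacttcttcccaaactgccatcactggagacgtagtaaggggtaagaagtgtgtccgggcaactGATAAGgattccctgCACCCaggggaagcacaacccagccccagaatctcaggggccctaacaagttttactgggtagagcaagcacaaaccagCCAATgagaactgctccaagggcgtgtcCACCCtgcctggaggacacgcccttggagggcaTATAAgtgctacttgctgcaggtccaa
Each of these 3 windows held all 4 motifs, while that of the marker Hemgn held TATAA alone. The nearest TATAA lay 29, 28 and 27 bases before the start in Hbb-bs, Hbb-bt and Hba-a1, and GATAAG lay much farther away, at 209, 204 and 182 bases. Hbb-bt held 3 copies of CACCC, Hba-a1 held 2 and Hbb-bs held 1. Among 32851 promoter windows of the same length, 6.55% held GATAAG, 52.0% CACCC, 33.9% CCAAT and 22.8% TATAA. A match of these letters is a description and not a measured binding site.

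Of the cells deposited for G12D T1, 2896 also stood in the table of G12D/E2-KO T1, 1494 of them identical in every gene, and 217 of them late erythroid. They were counted in G12D/E2-KO T1 alone, which leaves 2752 of 5648 cells in G12D T1. The shared cells made up 2896 of the 3044 cells and 217 of the 230 late erythroid cells of G12D/E2-KO T1, and neither labels nor tables name the library they came from. Ezh2 in late erythroid cells was at 54.0 CPM in G12D/E2-KO T1, as in the other libraries with deleted Ezh2 (59.7 to 97.4 CPM), and at 222 CPM in G12D T1 without the shared cells, as in G12D T2 and T3 (223 and 218 CPM). Late erythroid cells were shallower than the rest: the median UMI number of a cell ran from 2937.5 to 4474.5 over libraries, against 4196 to 7395 in the other cells. Without globin it ran from 1067 to 2295.5, and the late erythroid cells of a library together held 146943 to 934029 non-globin UMIs. A median cell expressed 564 to 1035 genes (1386 to 2085 in the other cells). Few cells lay near the limit, with 36 cells at 900 to 1000 globin UMIs per 10000 and 48 at 1000 to 1100. The lowest cell inside was at 1005.05 and the highest outside at 999.529.

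The share of late erythroid cells varied widely between libraries. Every E2-KO library lay above every G12D and G12D/E2-KO library, while all 3 mutants overlapped with WT. WT libraries held 5.11%, 9.99% and 6.82% at T1, T2 and T3 (120, 284 and 163 cells). E2-KO libraries held 11.7%, 8.49% and 22.2% (285, 250 and 574 cells), so that E2-KO T3 stood above every other library, with a 95% Wilson interval of 20.6 to 23.8%. G12D libraries held 6.54%, 5.64% and 3.06% (180, 136 and 78 cells), and G12D T3 was the lowest library (2.46 to 3.8%). G12D/E2-KO libraries held 7.56%, 5.23% and 4.20% (230, 197 and 110 cells). The intervals cover counting error only. The WT mean was 7.31% ± 2.48, the E2-KO mean 14.1% ± 7.18, the G12D mean 5.08% ± 1.81 and the G12D/E2-KO mean 5.66% ± 1.72 (SD, n = 3).

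Effects on the share were tested on log2 odds between libraries of the same time point. The mean difference with mutant NRas was -0.98 (SE 0.41), with 5 of 6 pairs lower, and did not pass an exact two-sided sign-flip permutation test (p = 0.0625, Benjamini-Hochberg adjusted over 3 tests 0.1875). With loss of Ezh2 it was 0.60 (SE 0.35) with 4 of 6 pairs higher (exact permutation p = 0.1875, adjusted 0.281). The interaction was -0.80 (SE 0.49) over 3 pairs (exact permutation p = 0.5). The smallest p the design allows is 0.03125 for 6 pairs and 0.25 for 3. Without the pairing by time point, the NRas effect reached an exact permutation p of 0.025 (adjusted 0.05 over 2 tests, since the interaction could not be tested this way) and the Ezh2 effect one of 0.14. The share depends on which cells were enriched and on every other population in the library.

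**Figure D1:**
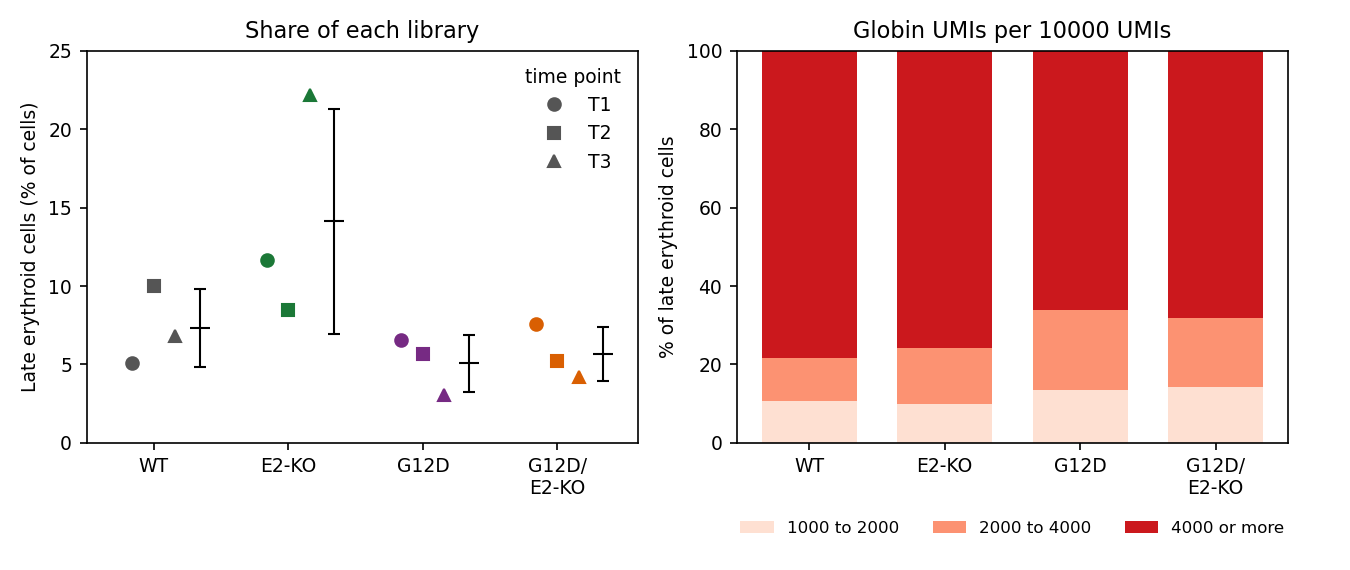
Left: late erythroid cells as % of all cells of a library (points, by time point) with mean and SD of the 3 libraries of a genotype; E2-KO T3 (22.2%) stands above the other 11 libraries, which lie between 3.06% and 11.7%. Right: % of the late erythroid cells of each genotype, pooled over time points, in 3 bands of globin UMIs per 10000 UMIs, with the highest band holding most cells of every genotype.

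Most late erythroid cells were dominated by globin. Their median globin sum per 10000 UMIs ran from 4349 to 6721 over libraries (4.10 to 33.8 in the other cells). These medians averaged 6368 ± 321 for WT, 6231 ± 114 for E2-KO, 5030 ± 668 for G12D and 5501 ± 944 for G12D/E2-KO (SD, n = 3). Every G12D library lay below every WT and E2-KO library, while the G12D/E2-KO libraries ranged across both. Hbb-bs, the larger beta-globin source, gave 46.7 to 53.9% of globin UMIs, Hbb-bt 13.6 to 17.8%, Hba-a1 18.7 to 23.8% and Hba-a2 12.4 to 15.7%. Alpha globin thus made up 32.1 to 39.2% of globin UMIs. The genes of each pair are near-identical, so that the split between copies depends on how reads matching both were assigned.

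The ratio of Hbb-bt to Hbb-bs is drawn from the genes that chose the cells. It is therefore given as a description, and p-values computed for it are not used. It was 0.259, 0.275 and 0.276 in WT at T1, T2 and T3. In E2-KO it was 0.333, 0.326 and 0.372, above every WT library. G12D libraries lay between these groups at 0.305, 0.300 and 0.301, and G12D/E2-KO libraries were at 0.328, 0.312 and 0.291. In the other cells, where globin UMIs are few, the ratio was 0.364 to 0.50. This ratio was picked after the data had been seen.

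Within the class, 3 bands of the globin sum were compared to describe how the cells vary: 1000 to 2000 (300 cells, 11.5%), 2000 to 4000 (394 cells, 15.1%) and 4000 or more globin UMIs per 10000 (1913 cells, 73.4%). The highest band held 60.3 to 82.7% of the late erythroid cells of a library. The median cell held 4758 non-globin UMIs and 1654 genes in the lowest band, 3080 and 1256 in the middle band and 1137 and 577 in the highest. Since the bands are shares of a cell's UMIs, this order of the non-globin UMIs may follow in part from how they were made. The bands do not fix the UMI number of a cell, and the size of that part was not tested. The values below are medians over 12 libraries in CPM of non-globin UMIs, and since globin set the bands they are given without a test. They are shares of a non-globin pool that was smallest per cell in the highest band. A rising share therefore does not show that a cell held more UMIs of that gene, which was not computed.

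Heme and membrane genes took a growing part of the non-globin RNA with globin. Alas2, the erythroid enzyme that starts heme synthesis, went from 717 to 1668 to 5878 CPM over the bands. Fech, which inserts the iron in the last step, went from 447 to 866 to 2298 CPM. Tmem14c, a heme-precursor transporter of mitochondria, differed from both and was at 2389, 2476 and 1254 CPM. Slc4a1 of the membrane went from 638 to 1212 to 2671 CPM and the regulator Hemgn from 807 to 1309 to 1963 CPM. Bpgm, which makes the 2,3-bisphosphoglycerate that sets oxygen affinity, went from 112 to 174 to 2381 CPM, with most of that difference between the middle and the highest band. The heme list as a whole went from 78.5 to 124 to 229 UMIs per 10000 non-globin UMIs, and the membrane list from 75.7 to 116 to 273.

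Genes of ubiquitination and organelle clearance showed the same late step. Their list sum went from 61.0 to 87.0 to 303 UMIs per 10000. Bnip3l, the receptor for removal of mitochondria, was at 435, 539 and 2087 CPM. The ubiquitin ligase Mkrn1 was at 494, 688 and 4488 CPM, the ubiquitin and ISG15 conjugating enzyme Ube2l6 at 254, 465 and 2230 CPM, and the conjugating enzyme Ube2h at 29.5, 45.6 and 336 CPM. Xpo7, a nuclear exportin of terminal erythroblasts, was at 40.1, 55.7 and 1041 CPM. Bcl2l1, the survival factor Bcl-xL, was at 47.0, 58.2 and 593 CPM. In each of these genes the step from the middle to the highest band exceeded the step before it.

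Other groups went the opposite way. Car1 (carbonic anhydrase 1, a marker of earlier erythroid cells) went from 1637 to 1061 to 335 CPM. The replication genes Dut (818, 728 and 267 CPM) and Mcm5 (177, 200 and 67.2 CPM) were lowest in the highest band, and so was the summed S phase list (60.4, 75.6 and 44.4 UMIs per 10000). The chaperone Hsp90ab1 went from 770 to 309 to 169 CPM, and the heat shock list from 31.7 to 21.4 to 16.3. As a share of the shrinking non-globin pool, the mitosis list instead went from 120 to 162 to 213 UMIs per 10000. Ube2c was at 898, 1394 and 3384 CPM and Mki67 at 543, 834 and 1312 CPM. The CDK inhibitors Cdkn2d (131, 381 and 1135 CPM) and Cdkn1b (26.2, 75.3 and 243 CPM) were also highest with the most globin. The transcription factor Klf1 went from 541 to 746 to 1080 CPM, and Gata1 from 209 to 245 to 286 CPM.

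The embryonic globins were detected and followed the adult ones. Hbb-bh1 was at 152, 384 and 2596 CPM over the bands, Hbb-y at 22.5, 65.1 and 381 CPM, Hbb-bh2 at 8.74, 31.0 and 183 CPM and Hba-x at 7.13, 18.7 and 105 CPM. These genes resemble the adult globins, which supply most RNA of these cells, so that reads shared between copies could give a part of these UMIs, which was not tested. None of the 4 embryonic globins passed the test in any comparison with WT. The summed interferon-response list also went from 8.34 to 11.3 to 47.6 UMIs per 10000, led by Isg15 (190, 301 and 2138 CPM) and Rsad2 (75.3, 193 and 1391 CPM). Of the lists of other cell types, 3 went the same way over the bands, with the granulocyte list at 75.5, 131 and 200, the macrophage list at 0.448, 0.876 and 2.31 and the lymphoid list at 0.72, 1.03 and 3.09 UMIs per 10000. The megakaryocyte list was at 0.693, 1.01 and 0.984 and the stem and multipotent progenitor list at 0.589, 0.488 and 0.663. Their part in these values was not tested.

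**Figure D2:**
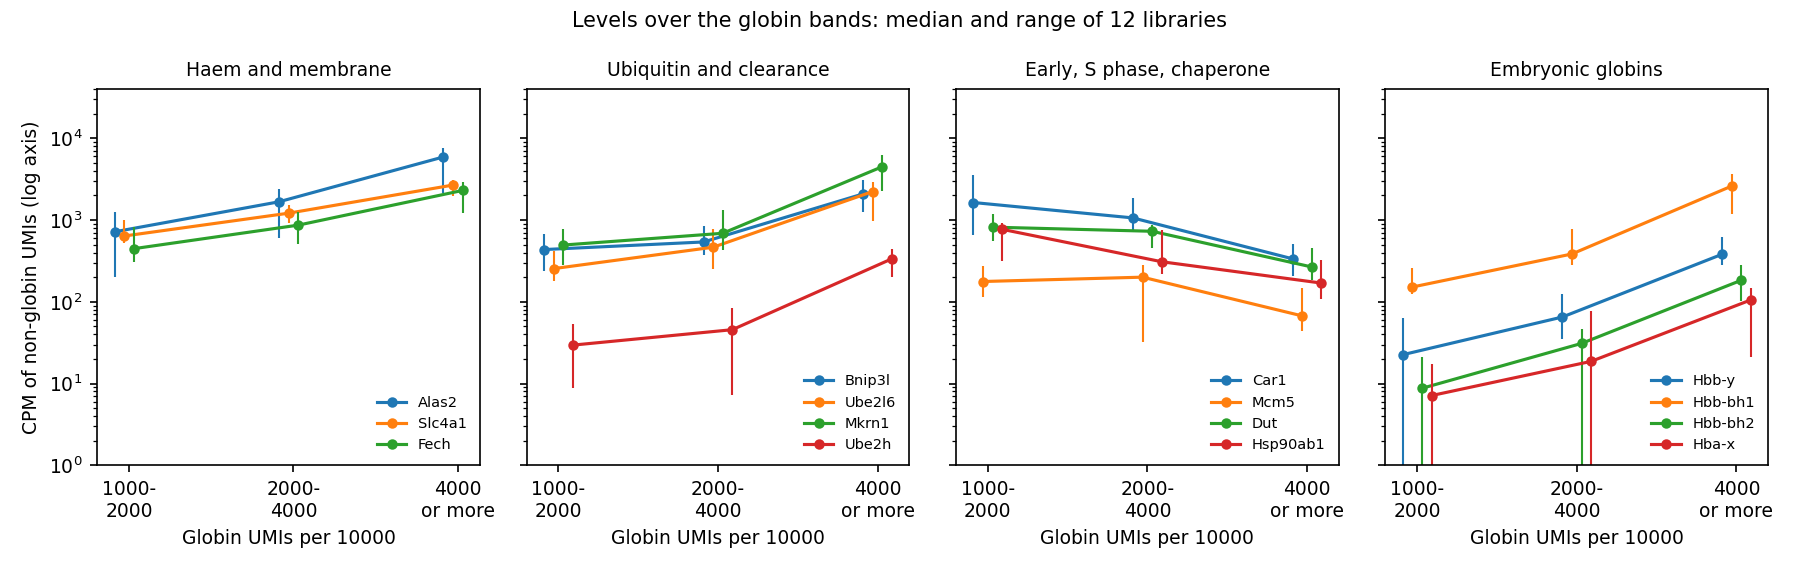
Levels in CPM of non-globin UMIs (log axis) in the 3 globin bands; points are medians and vertical lines ranges over 12 libraries, and a line reaching the bottom axis includes a library at 0. The heme, membrane, clearance and embryonic globin genes shown are highest in the band with the most globin, while Car1, Mcm5, Dut and Hsp90ab1 are lowest there.

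Genotypes were compared on counts summed per library over the late erythroid cells, without the 4 globin genes, with edgeR's quasi-likelihood test (genotype and time point as terms, 4825 genes, Benjamini-Hochberg adjusted over all of them, threshold 0.05). The targeted gene followed the labels. Ezh2 was at 247, 186 and 214 CPM in WT at T1, T2 and T3, and at 222, 223 and 218 CPM in G12D. In E2-KO it was at 72.0, 59.7 and 97.4 CPM and in G12D/E2-KO at 54.0, 76.6 and 74.9 CPM, so that all 6 libraries with the deleted allele lay below the other 6. The log2 fold change from WT was -1.44 in E2-KO (SE 0.22, adjusted p = 1.77e-04) and -1.58 in G12D/E2-KO (SE 0.24, adjusted p = 3.83e-04). In the other cells of the same libraries it was -2.01 and -2.38, and the difference did not pass (limma, 0.58 with adjusted p = 0.781 and 0.88 with adjusted p = 0.0509). Nras was at 31.6 to 70.7 CPM in all libraries and passed in no comparison, and these counts do not read the mutated base.

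E2-KO gave the most calls against WT, with 62 genes higher (1.28%) and 55 lower (1.14%), or 117 of 4825 genes (2.42%). Summed non-globin UMIs per library were 502595 to 934029 in E2-KO, 183769 to 483076 in G12D and 146943 to 685541 in G12D/E2-KO. Call counts of the genotypes thus do not rest on equal depth. The E2-KO count was 61 with DESeq2, and 705 genes had an unadjusted p under 0.05. This count fell to between 50 (without E2-KO T3) and 62 without E2-KO T1 or any 1 WT library, and went to 191 and 204 without G12D/E2-KO T2 or T3. None of the genes that rose was on the heme (18 tested), membrane (25) or embryonic globin (4) lists. In lists of this size a count of 0 is near the 1.28% of all genes that rose. H1f0 encodes the linker histone H1.0, a variant that builds up in differentiated cells. It was at 73.4, 57.2 and 23.8 CPM in WT and at 708, 881 and 388 CPM in E2-KO, with no overlap (log2 fold change 3.79, SE 0.28, adjusted p = 3.93e-09). Bmi1, a subunit of the other Polycomb complex PRC1, was at 16.7, 15.5 and 10.6 CPM in WT and 112, 85.6 and 110 CPM in E2-KO (2.80, SE 0.31, adjusted p = 2.79e-06). Runx1t1, the corepressor ETO, was at 10.0, 10.8 and 23.8 CPM in WT and 140, 157 and 187 CPM in E2-KO (3.46, SE 0.33, adjusted p = 3.95e-07). In these genes every E2-KO library lay above every WT library, a description, since they were named for large increases that passed. No alternative or left-out library removed these E2-KO calls.

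The upstream sequences of H1f0 (chr15:79027962-79028211, plus strand) and Bmi1 (chr2:18676768-18677017, plus strand) are shown beside the globin promoters because these are the chromatin genes among the largest increases (RefSeq, GRCm38.p6). Capitals mark CG dinucleotides, the feature of the promoters at which PRC2 is mostly found.
H1f0: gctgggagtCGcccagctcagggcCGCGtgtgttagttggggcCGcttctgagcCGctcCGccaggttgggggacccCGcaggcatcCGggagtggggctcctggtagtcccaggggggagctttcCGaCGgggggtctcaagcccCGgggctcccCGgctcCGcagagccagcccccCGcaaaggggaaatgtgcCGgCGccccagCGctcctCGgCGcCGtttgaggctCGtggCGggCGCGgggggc
Bmi1: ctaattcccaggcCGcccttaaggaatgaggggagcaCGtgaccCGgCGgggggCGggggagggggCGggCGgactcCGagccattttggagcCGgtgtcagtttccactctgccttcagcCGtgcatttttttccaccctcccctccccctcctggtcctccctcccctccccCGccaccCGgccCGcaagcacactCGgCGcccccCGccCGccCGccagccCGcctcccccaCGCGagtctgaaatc
The H1f0 window held 24 CG dinucleotides and the Bmi1 window 21, against 2 in Hbb-bs, 0 in Hbb-bt and 4 in Hba-a1. The median of all 32851 windows was 6, and 12.0% of them held at least 24. Of the 10 genes named for the largest increase in E2-KO, 6 had a window, with 25 CG dinucleotides in Syt14, 6 in Gdpd3, 5 in Rragd and 1 in Apol10a. Dense CG was thus found in 3 of these 6 genes and not in the other 3, and methylation was not measured.

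Several further genes went from nearly absent to clearly detected in E2-KO. Gkap1, an anchoring protein of a cGMP-dependent kinase, was at 0, 3.1 and 2.6 CPM in WT (3 UMIs) and at 77.3, 85.6 and 45.0 CPM in E2-KO (129 UMIs). Syt14, a synaptotagmin, was at 6.7, 7.7 and 2.6 CPM in WT and 57.9, 35.8 and 119 CPM in E2-KO (log2 fold change 3.38, SE 0.44, adjusted p = 2.41e-05, or 0.15 with the tables as deposited). Rragd, a Rag GTPase that links amino acids to mTORC1, was at 3.3, 7.7 and 2.6 CPM in WT (7 UMIs) and 63.2, 59.7 and 55.7 CPM in E2-KO. None of these genes overlapped between the genotypes. This is a description without added support, since they were named for large increases that passed. Chchd7, a small protein of the mitochondrial intermembrane space, was already present in WT at 93.4, 72.6 and 29.1 CPM and reached 265, 245 and 292 CPM (2.07, SE 0.25, adjusted p = 9.00e-06). These genes were also higher in E2-KO outside late erythroid cells. There a UMI of Gkap1 was found in 4.62% of WT and 17.3% of E2-KO cells. For Syt14 these shares were 0.057% and 0.947%, and for Rragd 0.356% and 1.21%. Chchd7 was at 55.9 to 75.4 CPM in the other WT cells and 144 to 152 CPM in the other E2-KO cells. Nrip3 (2.11, adjusted p = 4.96e-04) and Apol10a of the apolipoprotein L family (2.00, adjusted p = 4.96e-04) complete the 10 named genes with Gdpd3, which is given below.

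These increases were also read band by band, without a test. Pooled over time points, H1f0 in E2-KO was at 482, 548 and 708 CPM from the lowest to the highest band, and in WT at 68.5, 73.2 and 26.2 CPM, so that E2-KO was higher in each band. Runx1t1 in E2-KO was at 36.4, 74.4 and 299 CPM, and in WT at 4.4, 16.6 and 21.0 CPM. Bmi1 in E2-KO was at 88.4, 94.0 and 121 CPM. The WT values rest on few UMIs, with 31, 22 and 15 for H1f0.

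**Figure D3:**
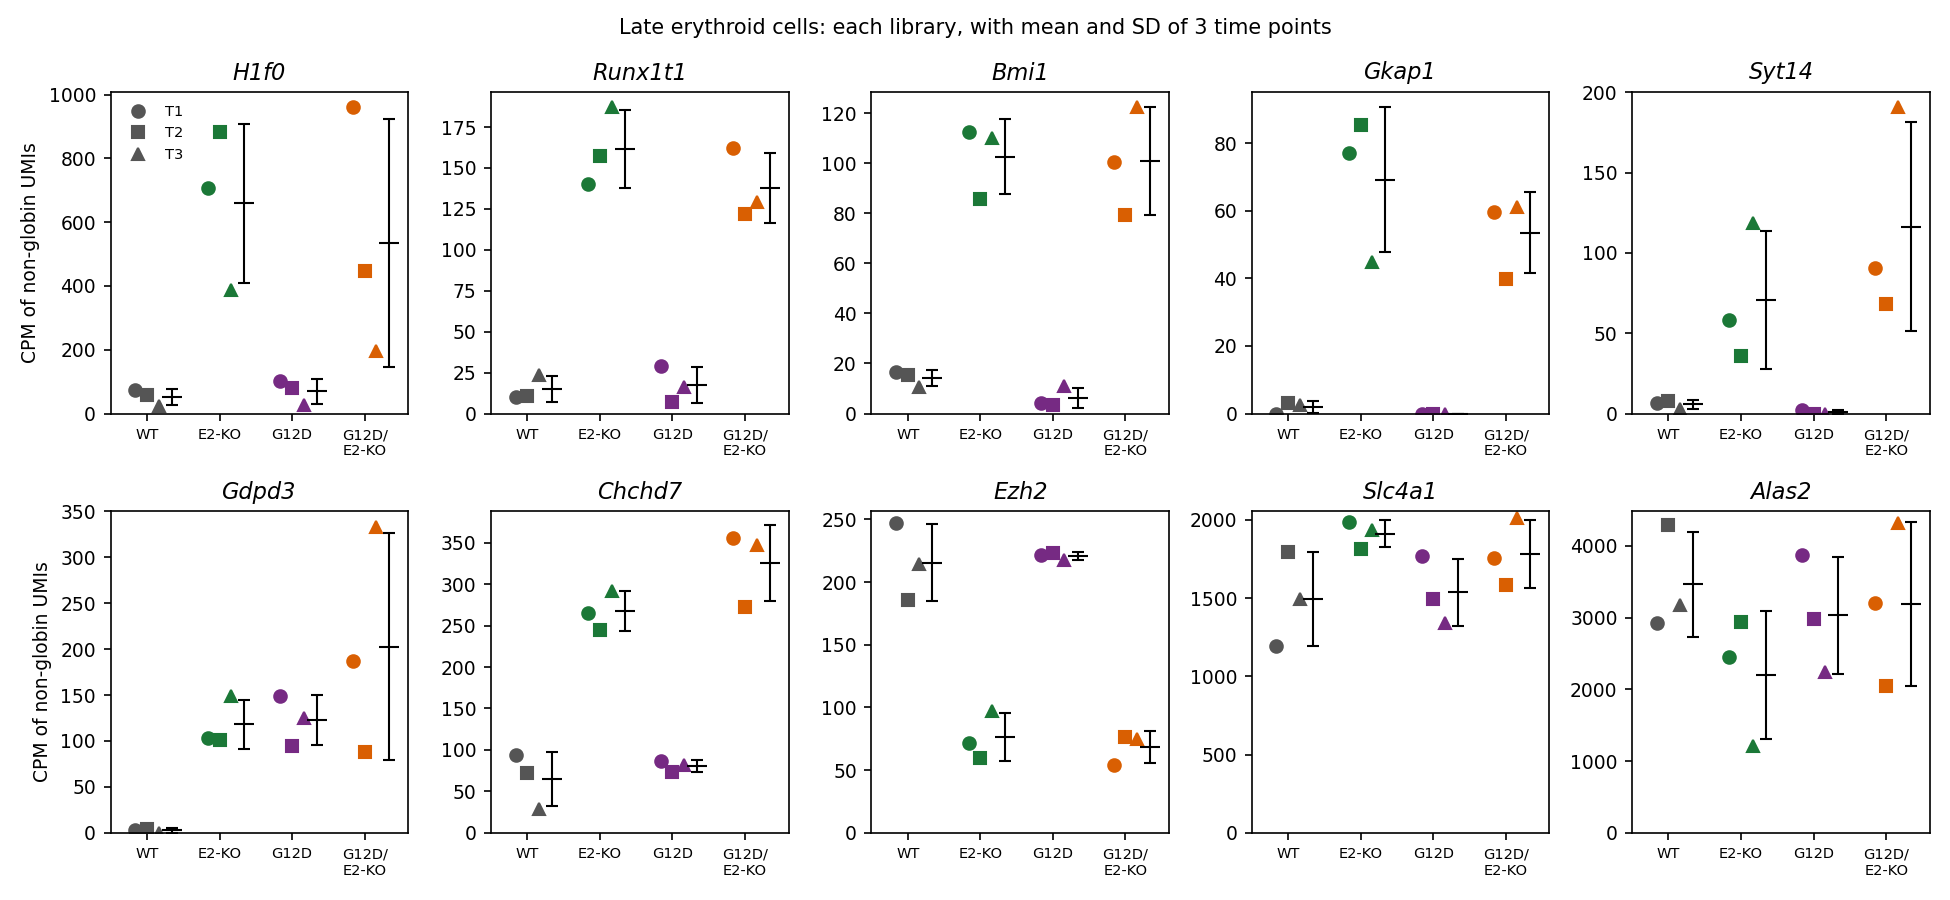
Levels of 10 genes in CPM of non-globin UMIs in the late erythroid cells of each library (points, by time point) with mean and SD of the 3 libraries of a genotype; each panel has its own axis from 0. H1f0, Runx1t1, Bmi1, Gkap1, Syt14 and Chchd7 are high in both genotypes without Ezh2, Gdpd3 in all 3 mutants, and Slc4a1 and Alas2 overlap between genotypes.

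The change of H1f0 was larger in late erythroid cells than in the rest of the same libraries. In the other cells H1f0 was at 42.7 to 60.5 CPM in WT and 73.2 to 131 CPM in E2-KO. In cells under the globin limit with at least 10 Car1 UMIs per 10000 (4010 cells, the most similar population) it was at 37.0 to 59.9 CPM in WT and 50.2 to 110 CPM in E2-KO, a log2 fold change of 0.84 (adjusted p = 1.95e-03). The WT ranges thus overlapped in all 3 populations, while in E2-KO each late erythroid library lay above every library of the other 2 populations. The difference of the log2 fold change was 2.68 against the other cells (SE 0.24, limma adjusted p = 2.36e-05) and 2.82 against the Car1-positive cells (SE 0.26, adjusted p = 4.99e-06). Leaving out each library in turn kept both past the threshold. H1f0 was 1 of 4 genes (0.0829%) called against the other cells, with S100a13, Ncf4 and Fhl1, and the only 1 (0.0207%) called against the Car1-positive cells. Without G12D/E2-KO T3 these counts were 13 and 16, and without any 1 WT or E2-KO library the first was 1. Runx1t1 was at 0.4 to 0.5 CPM in the other WT cells and at 0.9 to 1.7 CPM in the other E2-KO cells, far below its level in late erythroid cells, while its difference of 2.00 in fold change did not pass (adjusted p = 0.345). For Bmi1 the difference was 0.63 (SE 0.31, adjusted p = 0.845).

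**Figure D4:**
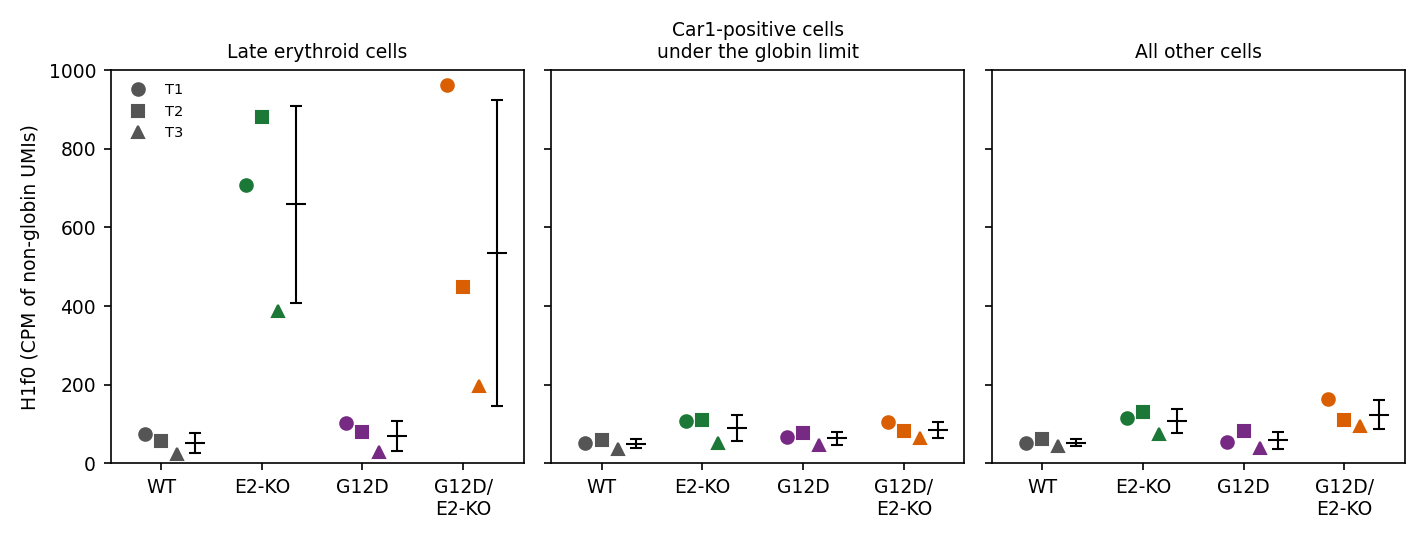
H1f0 in CPM of non-globin UMIs in late erythroid cells, in Car1-positive cells under the globin limit and in all other cells, by library (points, by time point) with mean and SD of 3 libraries. Late erythroid cells of E2-KO and G12D/E2-KO range from 197 to 961 CPM, and the highest other point is at 164 CPM.

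Of the 55 genes that fell in E2-KO, 8 were on the granulocyte list and 3 on the macrophage list. Of 14 granulocyte markers 8 fell, against 1.14% of all genes tested, and none rose (median log2 fold change -1.59, against -0.02 over all genes tested). S100a8, a calprotectin subunit, was at 8596, 4887 and 10854 CPM in WT and 2074, 1431 and 3034 CPM in E2-KO (-1.86, SE 0.21, adjusted p = 4.01e-06). Lcn2 (lipocalin 2) fell by 2.11 on the log2 scale (adjusted p = 1.25e-06), Ngp fell by 1.82 and Camp, a neutrophil antimicrobial peptide, fell by 1.65. The summed granulocyte list was at 160 to 306 UMIs per 10000 non-globin UMIs in late erythroid cells of WT and at 65.1 to 86.7 in E2-KO. In the other cells it moved the same way, at 1192 to 1404 in WT and 528 to 748 in E2-KO, and no list member was at 0 in any library. For S100a8 the difference of the fold change between late erythroid and other cells was -0.68 (SE 0.50, limma adjusted p = 0.97). The part of granulocyte RNA outside these cells in this result was not tested.

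Macrophage genes fell as well. C1qa, C1qb and C1qc encode the complement component C1q, a product of tissue macrophages, and 3 of the 4 tested macrophage markers fell in E2-KO (the other was not called). C1qa was at 83.4, 104 and 26.5 CPM in WT and 14.0, 19.9 and 6.4 CPM in E2-KO (log2 fold change -2.36, adjusted p = 4.15e-03), a call that was lost without WT T2 (adjusted p = 0.14), without E2-KO T1 (0.0911) or with no time point term (0.0896). The C1qb call was lost without WT T1 (adjusted p = 0.0712), WT T2 (0.165), E2-KO T1 (0.0792) or E2-KO T2 (0.0578) and with DESeq2 (0.0526). The summed macrophage list was at 2.49 to 5.41 UMIs per 10000 in late erythroid cells of WT and at 0.824 to 1.63 in E2-KO. It was also below WT in G12D, at 1.09 to 1.35, where the 4 tested markers had log2 fold changes of -2.19 to -1.61 without a call. In the other WT cells the list was at 0.381 to 0.717. The list was higher in late erythroid than in other cells in every library except G12D/E2-KO T2 (0.0568 against 0.416). In WT, 23.3%, 24.6% and 15.3% of late erythroid cells held a UMI of a C1q gene, and over all genotypes 257 (9.86%) did. At most 1 of the 11 markers was at 0 in a WT library and 9 were at 0 in G12D/E2-KO T2. The part of macrophage RNA in other results was not tested, and leaving out these 257 cells left the E2-KO count within 1.5 times.

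**Figure D5:**
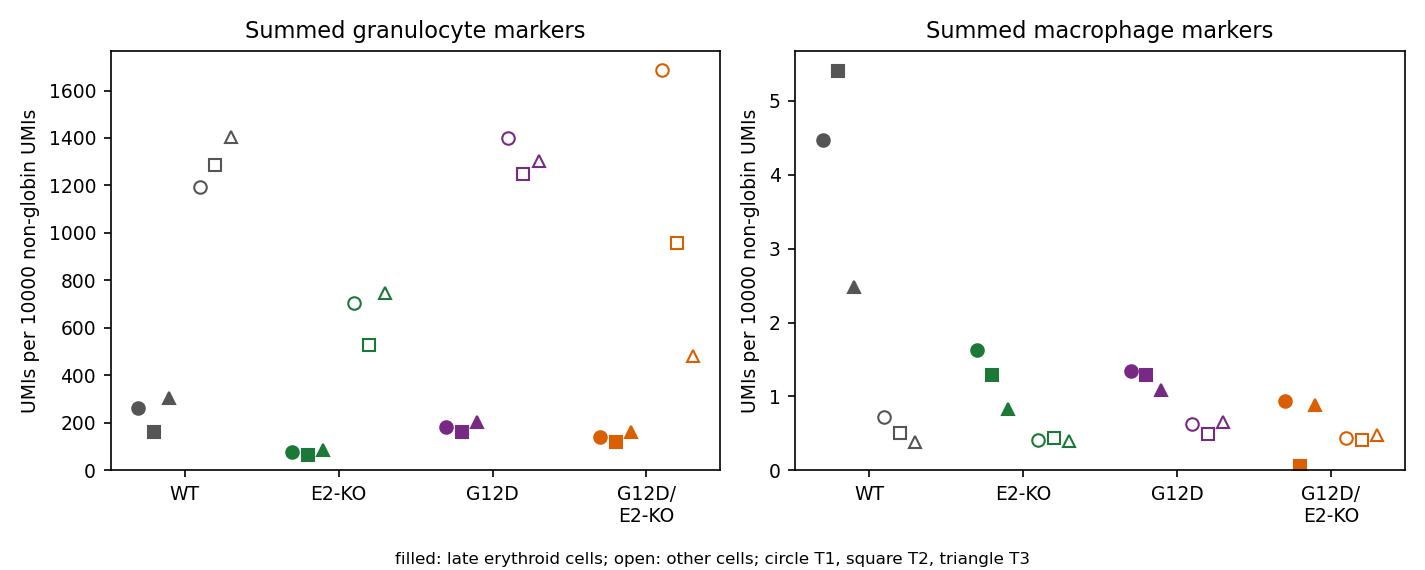
Summed granulocyte markers (14 genes, left) and macrophage markers (11 genes, right) in UMIs per 10000 non-globin UMIs, for late erythroid cells (filled) and other cells (open) of each library. Granulocyte UMIs are far lower in late erythroid cells than in the other cells. Among late erythroid cells they are lowest in E2-KO, while macrophage UMIs are highest in the late erythroid cells of WT.

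In G12D, 4 genes were higher (0.0829%) and 3 lower (0.0622%) than in WT, or 7 of 4825 genes (0.145%), with 398 genes at an unadjusted p under 0.05 and 12 calls by DESeq2. The count was 1 to 4 without any 1 WT or G12D library, 11 without E2-KO T2, and 23, 17 and 30 without G12D/E2-KO T1, T2 and T3. Gdpd3, a phosphodiesterase of lysophospholipids, was at 3.3, 4.6 and 0 CPM in WT (4 UMIs) and at 149, 94.3 and 125 CPM in G12D (log2 fold change 5.21, SE 0.51, adjusted p = 3.26e-06). Over the reported fit and its alternatives this fold change ranged from 4.51 to 6.43. Pttg1, the securin that holds sister chromatids together until anaphase, was at 173, 170 and 119 CPM in WT and at 526, 290 and 528 CPM in G12D (1.51, SE 0.24, adjusted p = 3.45e-03). Both genes also rose in E2-KO (5.11 and 1.93) and in G12D/E2-KO (5.83 and 1.99), that is, in every genotype with Mx1-Cre. Both were higher in the mutants outside late erythroid cells too. In the other cells Gdpd3 was at 7.04 to 10.1 CPM in WT and 27.3 to 74.3 CPM in the mutants. In the Car1-positive cells under the globin limit it was at 0.69 to 1.16 and 13.5 to 59.4 CPM. A UMI of Pttg1 was found in 21.1% of the other WT cells and 47.0 to 56.6% of those of the mutants. Without G12D T1 (adjusted p = 0.103) or WT T3 (0.0511) the Pttg1 call in G12D was lost. The other increases were the processed pseudogene Gm8730 (1.22, adjusted p = 0.0155), which may share reads with its parent gene, and Tpm3-rs7 (3.33, adjusted p = 0.0308). The Gm8730 call was lost without WT T1 (adjusted p = 0.156), WT T3 (0.0964), G12D T1 (0.427) or G12D T3 (0.121) and with no time point term (0.225).

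The decreases in G12D lay at the threshold. H2afy, the histone variant macroH2A1, was at 190, 167 and 119 CPM in WT and 47.6, 59.4 and 59.9 CPM in G12D (-1.51, adjusted p = 0.0499). Mif, a cytokine abundant in progenitors, was at 340, 284 and 270 CPM in WT and 104, 143 and 163 CPM in G12D (-1.15, adjusted p = 0.0499). mt-Nd2, a complex I subunit encoded in mitochondria, was at 487, 678 and 598 CPM in WT and 242, 297 and 294 CPM in G12D (-1.07, adjusted p = 0.0499). By globin band, pooled over time points and without a test, Mif was at 470 CPM in WT and 128 in G12D in the lowest band, at 346 and 130 in the middle band and at 124 and 124 in the highest, which holds most cells. H2afy was at 210 and 22.5, at 213 and 55.7, and at 89.2 and 77.9 CPM. mt-Nd2 was at 948 and 433, at 686 and 264, and at 308 and 134 CPM, so that it was lower in each band, while Mif and H2afy differed mainly below the highest band. At a globin limit of 2000 the log2 fold change was -0.58 for Mif (adjusted p = 0.685) and -0.86 for H2afy (0.605). Each of the 3 lost the call in 11 to 13 of 23 fits, with the reported fit counted among the 23. These losses included each fit without a G12D library and those without WT T1 or WT T2. The fall of Mif and mt-Nd2 was larger than in the Car1-positive cells (differences -0.99 and -1.09, limma adjusted p = 0.0314 and 2.26e-03), in a comparison that called 7 genes (0.145%), 5 of them mitochondrial (mt-Nd2, mt-Atp6, mt-Co3, mt-Nd4 and mt-Cytb). That count was 0 without WT T1, 1 without WT T2, 3 without any 1 G12D library, 13 without WT T3 and 34 without G12D/E2-KO T3. Against all other cells 28 genes differed (0.58%), 13 higher (0.269%) and 15 lower (0.311%), a count that was 0 without WT T1, WT T3 or G12D T3, 1 without G12D T1, 12 without E2-KO T1, 92 without G12D T2 and 158 without G12D/E2-KO T3. The authors had removed cells above 10% mitochondrial UMIs in all libraries.

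G12D/E2-KO differed from WT in 62 genes (1.28%), 48 higher (0.995%) and 14 lower (0.29%), with 602 genes at an unadjusted p under 0.05 and 52 calls by DESeq2. The count was 31 without WT T1, 35 without WT T2 and 143 without G12D/E2-KO T3. That library had no UMI of Xist, the RNA of the inactive X chromosome, while WT, E2-KO and G12D at T3 were at 1352 to 1785 CPM, so that it differs in sex from its time point partners, and the part of this in the counts was not tested. H1f0 was at 961, 448 and 197 CPM against 101, 80.3 and 27.2 CPM in G12D (log2 fold change from WT 3.41, SE 0.28, adjusted p = 5.59e-08). Syt14 was at 90.4, 68.1 and 191 CPM (4.15, adjusted p = 1.21e-06), Runx1t1 at 162, 122 and 129 CPM (3.34) and Bmi1 at 101, 79.5 and 122 CPM (2.81). Col5a1, a collagen chain, was at 155, 136 and 211 CPM against 26.7, 32.5 and 31.8 CPM in WT (2.46, adjusted p = 6.55e-06). With the shared cells left in G12D T1 as deposited, the adjusted p of H1f0 became 0.0821, that of Runx1t1 0.08 and that of Syt14 0.128. For H1f0 the change again exceeded that in the other cells (difference 2.04, SE 0.24, limma adjusted p = 1.08e-03, among 94 genes or 1.95% called, 84 or 1.74% of them higher) and in the Car1-positive cells (2.42, adjusted p = 6.28e-05, among 4 genes or 0.0829%). The other 3 were Chchd7 (1.42, higher like H1f0, 0.0415%) and Hmox1 and Lgals1 (-2.08 for Lgals1, both lower, 0.0415%), with Hmox1 resting on few UMIs. Left-out libraries moved the count of 94 to between 1 (without WT T3) and 224 (without G12D/E2-KO T3), with 4 without WT T1 and 32 to 57 without E2-KO T1 or T2 or G12D/E2-KO T1 or T2. They moved the count of 4 to 2 without WT T1 or T3 and to 10 and 93 without G12D/E2-KO T2 and T3. The Chchd7 call was lost without WT T1 (adjusted p = 0.0818) or WT T3 (0.181), and that of Hmox1 without any library but G12D T3 and G12D/E2-KO T3 (0.0536 to 0.228), while H1f0 passed each time.

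Of the genes of iron and heme handling, Tfrc and Hmox1 passed in the double mutant. Tfrc, the transferrin receptor that brings iron into erythroblasts, was at 510, 583 and 677 CPM in WT and at 1141, 1067 and 1062 CPM in G12D/E2-KO (0.98, SE 0.21, adjusted p = 0.0121). E2-KO libraries were at 860, 804 and 1216 CPM (0.72, adjusted p = 0.0732) and G12D libraries at 822, 520 and 533 CPM. The Tfrc call was lost without WT T1 (adjusted p = 0.192), T2 (0.0647) or T3 (0.0588), without G12D/E2-KO T1 (0.0591) or with only the libraries of the 2 genotypes (0.117). Hmox1, the heme oxygenase that degrades heme and is abundant in macrophages, was at 70.1, 133 and 31.8 CPM in WT and at 4.4, 0 and 0 CPM in G12D/E2-KO (3 UMIs, adjusted p = 2.38e-05). E2-KO was at 70.2, 31.8 and 26.8 CPM and G12D at 22.8, 34.9 and 5.4 CPM. With so few UMIs the fitted fold change of Hmox1 depends on the prior count and is not given. C1qa, C1qb and C1qc fell beside Hmox1 (-2.42, -3.03 and -3.49). They too rest on few UMIs, found in 12, 12 and 9 of 537 G12D/E2-KO cells. Over the reported fit and its alternatives their log2 fold changes ranged from -8.06 to -1.65, -4.99 to -2.43 and -8.13 to -2.90. The C1qa call was lost without WT T1 (adjusted p = 0.0577), WT T2 (0.148) or G12D/E2-KO T2 (0.0573). It was also lost with no time point term (0.214) or only the libraries of the 2 genotypes (0.149). The summed macrophage list was at 0.0568 to 0.934 UMIs per 10000. Of the granulocyte markers 1 fell, S100a9 (-0.93, adjusted p = 6.80e-03, or 0.0718 without WT T1, 0.0917 without WT T3 and 0.16 with only the libraries of the 2 genotypes), and the granulocyte sum was at 118 to 162.

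The double mutant was also set against G12D in the same fit, since these genotypes share Mx1-Cre and mutant NRas and differ in Ezh2. This comparison was added after the data had been seen and shares no library with E2-KO against WT. It called 32 genes (0.663%), 28 higher (0.58%) and 4 lower (0.0829%), with 475 genes at an unadjusted p under 0.05 and 13 calls by DESeq2. Of these 26 were also called in E2-KO against WT (81.25% of the 32 and 22.2% of the 117), all 26 in the same direction. H1f0 (2.97, adjusted p = 4.89e-07), Runx1t1 (2.93) and Bmi1 (4.23) were among the 26, with Ezh2 (-1.65, adjusted p = 4.19e-04). Gkap1 had 64 UMIs in G12D/E2-KO and 0 in G12D, and Syt14 had 114 and 1. Gdpd3 (0.62, adjusted p = 0.472) and Pttg1 (0.48, adjusted p = 0.489) did not pass. With the shared cells left in G12D T1 the count fell to 1. It was 13 and 11 without G12D T1 and T2, and 20 and 50 without G12D/E2-KO T1 and T2. With no time point term H1f0 did not pass in this comparison (adjusted p = 0.127).

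The lists of late red cell genes held no gene that passed, while the early erythroid and iron lists held Tfrc and Apoe. None of the 12 tested late erythroid markers, 18 heme synthesis genes, 25 membrane genes, 21 erythroid transcription factors or 23 clearance and ubiquitin genes passed against WT in any mutant. Over all genes tested the E2-KO share of calls was 2.42%, the G12D share 0.145% and the G12D/E2-KO share 1.28%, so that in lists of this size a count of 0 is near the background. Their median log2 fold changes lay between -0.155 and 0.233, against -0.021, -0.001 and -0.00034 over all genes tested in the 3 comparisons. Alas2 was at 2929, 4295 and 3170 CPM in WT and at 2448, 2943 and 1212 CPM in E2-KO (-0.66, SE 0.36, adjusted p = 0.438). Slc4a1 gave 0.38 in E2-KO (SE 0.19, adjusted p = 0.355) and 0.35 in G12D/E2-KO (adjusted p = 0.477), and Hemgn gave 0.46 (adjusted p = 0.248) and 0.29 (adjusted p = 0.591). A p above the threshold does not show that these levels were equal.

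Other lists gave few calls, and counts of 0 in them are likewise near the shares of all genes called (2.42%, 0.145% and 1.28%). A call of 1 gene in a list is not read as a result about that list. Of 24 S phase genes none passed (medians 0.389, 0.235 and 0.163, in the same order). Of 25 mitosis genes Pttg1 alone passed in each mutant. Of 9 tested Polycomb genes Bmi1 rose and Ezh2 fell in both genotypes without Ezh2, and none passed in G12D. None of 11 p53 targets and CDK inhibitors, 5 cytokine receptor and STAT5 genes, 4 Ras and ERK genes, 16 interferon genes or 9 chaperones passed in any of the 3 comparisons. A list without a call can still hold large fold changes. For the p53 and CDK inhibitor list they ran from -0.487 to 3.61 in E2-KO, -0.650 to 0.501 in G12D and -0.768 to 3.77 in G12D/E2-KO (log2). Of 13 iron genes Tfrc passed in G12D/E2-KO and of 16 hemoglobin partners and antioxidants Hmox1 did. Apoe, listed with early erythroid genes and also made by macrophages, fell in E2-KO (-2.34, adjusted p = 1.72e-04) and in G12D/E2-KO (-2.23, adjusted p = 1.50e-03, or 0.163 with the C1q-positive cells left out and 0.0509 with only the libraries of the 2 genotypes). The few tested megakaryocyte (2), stem cell (1) and lymphoid (6) markers gave no calls. The CDK inhibitor Cdkn2a, a known PRC2 target, was too low to be tested and had 0 UMIs in WT and G12D, 32 in E2-KO and 11 in G12D/E2-KO.

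Time points differed in few genes. T3 differed from T1 in 4 genes (0.0829%), 3 higher (0.0622%) and 1 lower (0.0207%), and T2 from T1 in 1 (0.0207%), with 384 and 185 genes at an unadjusted p under 0.05. DESeq2 called 3 and 2. The T3 count was 2 without WT T1, 1 without G12D/E2-KO T1 and 7 without G12D/E2-KO T3, and the T2 count ran from 0 to 3. H1f0 was lowest at T3 in every genotype (-1.57, SE 0.24, adjusted p = 2.82e-03), and its call was lost without G12D/E2-KO T1 (adjusted p = 0.0798), with the tables as deposited (0.449) and at a globin limit of 2000 (0.288). The granule gene Chil3 (1.21, adjusted p = 8.51e-03), Gm42418 (1.25, adjusted p = 0.0144) and Xist were higher at T3. Xist was at 1352, 1522 and 1785 CPM in WT, E2-KO and G12D at T3, at 0 in G12D/E2-KO T3 and at most 2.1 CPM at T1 and T2, so that time and sex cannot be told apart for the first 3 genotypes. Chil3 lost its call without WT T1 (adjusted p = 0.0549) or G12D/E2-KO T1 (0.147) and at globin limits of 500 (0.0517) and 2000 (0.0999), and Gm42418 without E2-KO T3 (0.468), G12D T1 (0.189), G12D T3 (0.114), WT T1 (0.0838) or G12D/E2-KO T1 (0.147) and at a globin limit of 2000 (0.272). Retnlg, a neutrophil gene, was lower at T2 (-1.65, adjusted p = 0.0262), but not without WT T1 (0.163), G12D T1 (0.363), G12D T2 (0.0809), G12D/E2-KO T1 (0.332) or G12D/E2-KO T2 (0.216), at a globin limit of 500 (0.0681) or without the C1q-positive cells (0.512).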

How the data were processed

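Single c-Kit-positive marrow cells of 12 mouse libraries, 1 per genotype and time point, were analysed from count tables. The authors aligned the reads with Cell Ranger to mm10, removed cells above 10% mitochondrial UMIs and doublets called by Scrublet, and deposited UMI counts per gene and cell, which are the unit of all values here. The version of the gene annotation is not given in the sources used here. The cells carry running numbers in place of barcodes, so cells shared by 2 tables were found by a cosine and removed from G12D T1. The cosine was taken on the square roots of the counts (above 0.9 over 8000 genes, the 300 most abundant left out).

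Counts of the late erythroid cells were summed per library without the 4 globin genes of the rule. They were tested with edgeR 4.0.16 (R 4.3.3; TMM factors 0.941 to 1.04, filterByExpr, robust quasi-likelihood fit, biological coefficient of variation 0.181, 6 residual degrees of freedom), with genotype and time point as terms. Differences between late erythroid and other cells were tested with limma 3.58.1 on log2 CPM differences per library (prior count 2). Shares were tested with exact two-sided sign-flip permutation tests. DESeq2 1.42.0, other factors, filters, globin limits, cell sets and left-out libraries were the alternatives. The fits were also run on simulated data with changes in E2-KO alone, which does not cover the G12D, interaction or time comparisons. Summed non-globin counts of 146943 to 934029 UMIs per library set the precision.

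Genes were named if they passed an adjusted p of 0.05 at a mean level of 5 or more in log2 CPM and with 1 direction at all time points (the 10 largest each way against WT, 5 each way for interaction and time), or if they were on a fixed list and passed. Genes given by band, or with values that did not pass, are members of those lists, and S100a13, Ncf4, Fhl1, Lgals1, Tpm3-rs7, Xist, the mitochondrial genes beside mt-Nd2 and Cdkn2a were named after their values were seen. The late erythroid cells, the gene lists and the tests were chosen with earlier results of these data known. Ahsp and Flvcr1 are not analysed here. Promoter windows came from RefSeq (GRCm38.p6).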

Additional observations from a re-analysis of the deposited data

Results flagged for a closer look

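The effect of the combined mutations differed from the sum of both single effects, by the interaction term of the edgeR fit, in 16 of 4825 genes (0.332%; 249 genes at an unadjusted p under 0.05; 12 calls by DESeq2), 12 higher (0.249%) and 4 lower (0.0829%). Without the time point term 0 genes passed, and without E2-KO T1 or G12D T1 the count was 4.

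Of the 12 higher genes 7 were on the granulocyte list, out of its 14 tested members, against 0.249% of all genes tested. These 7 genes were lower in E2-KO than in WT and nearer to WT in G12D/E2-KO. The interaction was 2.29 on the log2 scale for Retnlg (adjusted p = 0.0163), 2.21 for the granule gene Chil3 (1.93e-03), 2.04 for Ifitm6 (0.0396), 1.98 for Lcn2 (1.93e-03) and 1.80 for the adaptor Tyrobp (0.0151). It was 1.64 for lactoferrin, Ltf (0.0293), 1.55 for S100a8 (0.0151), 1.45 for S100a9 (0.0138), 1.33 for Camp (0.0181) and 1.20 for Ngp (0.0396). Without E2-KO T1 (adjusted p from 0.0555 to 0.209 for the lost calls) or G12D T1 (0.0501 to 0.316), Chil3 and Lcn2 alone among these 10 genes kept the call. Over 22 fits, with the reported fit counted among them, the call was lost in 1 for Chil3, 2 for Lcn2, 7 for S100a9 and 8 for S100a8. It was lost in 9 for Retnlg and Tyrobp, 10 for Camp, 13 for Ifitm6 and Ngp and 14 for Ltf. The summed granulocyte list in late erythroid cells was at 160 to 306 UMIs per 10000 in WT, 65.1 to 86.7 in E2-KO, 162 to 202 in G12D and 118 to 162 in G12D/E2-KO. In the other cells of the same libraries it was at 1192 to 1404, 528 to 748, 1248 to 1401 and 481 to 1686. The part of RNA from these other cells was not tested.

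Gdpd3 had an interaction of -4.50 (SE 0.62, adjusted p = 5.87e-04), since it was nearly absent in WT and similarly high in all 3 mutants, each of which carries Mx1-Cre. Over the reported fit and its alternatives this interaction ranged from -5.73 to -3.81, and the call was lost in 1. For Pttg1, which rose in each mutant, it was -1.45 (adjusted p = 0.0408), and this call was lost without any 1 library except G12D T2, G12D/E2-KO T2 and G12D/E2-KO T3 (adjusted p from 0.0526 to 0.301).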

How the results depend on the processing

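No call of a named gene reversed its direction, while values that did not pass could change sign. Of 1872 values of named genes with 1 library left out, 1702 kept their side of the threshold, 167 lost the call and 3 gained it. Of 1216 values under other settings, 1126 kept it and 90 lost it. DESeq2 gave 61 calls for E2-KO, 12 for G12D, 2 for T2 and 13 for G12D/E2-KO against G12D. RLE factors gave 4 for G12D, as did keeping the globin genes. Without the filter on low counts there were 201 (E2-KO), 36 (G12D), 115 (G12D/E2-KO), 6 (T2), 9 (T3) and 68 (G12D/E2-KO against G12D). With only the libraries of the compared genotypes there were 261, 52 and 21 against WT. A globin limit of 500 gave 113 for G12D/E2-KO, 0 for T2 and 51 for G12D/E2-KO against G12D, and a limit of 2000 gave 4 for the interaction and 1 for T3. With shared cells as deposited there were 3 for G12D and 1 for G12D/E2-KO against G12D. Without cells holding C1q UMIs, a setting added after the data had been seen, there were 4 for G12D and 0 for T2. The cause of these shifts was not tested.

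The reported fit holds the time point as a block. Without this replicate block the counts were 97 for E2-KO, 6 for G12D, 58 for G12D/E2-KO, 28 for G12D/E2-KO against G12D and 0 for the interaction, and 20 of 106 named values lost the call. Libraries of the same time point and different genotype deviated together only weakly (r from -0.145 to 0.268, median 0.081, over 3784 genes).

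With 1 library left out, calls ranged from 50 to 204 (E2-KO), 1 to 30 (G12D), 31 to 143 (G12D/E2-KO), 4 to 15 (interaction), 0 to 3 (T2), 1 to 7 (T3) and 11 to 50 (G12D/E2-KO against G12D). Differences from the other cells ranged from 1 to 13, 0 to 158 and 1 to 224 genes, and from the Car1-positive cells from 1 to 16, 0 to 34 and 2 to 93. The share effect ranged from 0.32 to 0.77 for Ezh2 loss, -1.25 to -0.63 for NRas and -1.28 to -0.46 for the interaction. The difference in the log2 ratio of Hbb-bt to Hbb-bs, given as a description without p-values, ranged from 0.14 to 0.24, -0.037 to 0.080 and -0.37 to -0.23. Leaving out cells with at least 50 granulocyte UMIs per 10000 was not run, because WT T3 would keep 0 cells.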

Other observations

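Interferon-response genes varied between libraries of the same genotype in late erythroid cells. Their summed list (21 genes with Isg15, Rsad2 and Ifit3) was at 26.2 to 31.2 UMIs per 10000 non-globin UMIs in WT and 21.8 to 25.9 in E2-KO. In G12D it was at 35.2, 23.7 and 69.2 at T1, T2 and T3, and in G12D/E2-KO at 61.2, 15.1 and 4.90. The other cells of the same libraries were ordered alike, at 8.47, 4.03 and 25.4 in G12D and 28.8, 9.73 and 3.38 in G12D/E2-KO. Isg15, a ubiquitin-like modifier, was at 2986, 551 and 74.9 CPM in late erythroid cells of G12D/E2-KO and at 1511, 1355 and 2743 CPM in G12D. With 1 library per time point this spread has no replicate check.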
